A study of Mus musculus with 12 samples.

Results

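RNA-Seq was measured in oligodendrocytes sorted from mouse brain, and 33 genes of sterol and fatty acid synthesis were examined in them. The genes were chosen by name, under a rule that used no measured value but with earlier results of these data known, and matched by symbol to the table of counts. All 33 were found among its 55376 symbols, and all 33 were among the 17716 genes with at least 1 CPM (counts scaled to the size of the library) in at least 4 of the 12 samples. They comprised 18 enzymes of cholesterol synthesis, 5 genes of the SREBP system that regulates these enzymes, 5 genes of fatty acid synthesis and 5 genes of sterol transport and LXR signaling.

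The cells were single live O1+ CD45- cells from C57BL/6 mice at postnatal day 40. O1 is a galactolipid antigen on the surface of differentiated oligodendrocytes, and CD45 is a surface protein of leukocytes. There were 4 samples of each of 3 genotypes, with 8 brains per genotype and 2 brains pooled in each sample. The comparisons asked what the loss of JAB1 in oligodendrocytes changed and what the additional loss of p21 changed in turn.

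WT mice carried neither mutation. Cnp-Cre:Jab1flfl mice, called Jab1 mutants here, carried floxed Jab1 alleles, which the files list as Cops5 and which encode a subunit of the COP9 signalosome. Cre in these mice was driven by Cnp, which is active from late oligodendrocyte precursors (OPCs) onward. The p21-/- Cnp-Cre:Jab1flfl mice, called double mutants here, carried the same Cre and floxed alleles and were also p21-/-, a constitutive knockout of Cdkn1a, which encodes p21. No group carried Cre alone or lacked p21 alone, so an effect of either by itself cannot be told apart from the effect of the genotype that carried it. The study lists the p21 knockout line under another strain of origin than the floxed Jab1 and Cnp-Cre lines, all of them backcrossed. Any strain difference that remained therefore cannot be told apart from the loss of p21.

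Cholesterol is a main lipid of myelin, and because little of it crosses the blood-brain barrier, brain cells make their own. Oligodendrocytes that build myelin use the mevalonate pathway at a high rate and also need newly made fatty acids. Both pathways are transcribed under SREBP factors, which INSIG proteins hold in the endoplasmic reticulum when sterols are abundant and which SCAP escorts to the Golgi for cleavage when sterols are scarce. LXR receptors sense oxysterols and drive sterol export.

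Of the 6 members whose level was lower in Jab1 mutants by the test described below, 5 had a promoter in the RefSeq table (GRCm38.p6), and their 250 bases before the start site are shown because these genes were lower together. The choice was made after their values had been seen. They are Hmgcs1 at chr13:119690101-119690350, Lss at chr10:76531355-76531604, Srebf2 at chr15:82147019-82147268 and Insig1 at chr5:28071162-28071411, all on the forward strand, and Fasn at chr11:120824548-120824797 on the reverse strand. Sequences run 5′ to 3′, and capitals mark an SRE-like match (TCACNCCAC, the kind of site that SREBPs bind) or a CCAAT match (the box that NF-Y binds), each searched on both strands, so that ATTGG is a CCAAT match on the other strand.
Hmgcs1: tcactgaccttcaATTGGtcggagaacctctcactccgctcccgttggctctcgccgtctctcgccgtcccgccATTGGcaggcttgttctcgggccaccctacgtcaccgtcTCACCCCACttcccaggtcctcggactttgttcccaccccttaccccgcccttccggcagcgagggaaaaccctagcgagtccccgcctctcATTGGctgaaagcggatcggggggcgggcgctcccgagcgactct
Lss: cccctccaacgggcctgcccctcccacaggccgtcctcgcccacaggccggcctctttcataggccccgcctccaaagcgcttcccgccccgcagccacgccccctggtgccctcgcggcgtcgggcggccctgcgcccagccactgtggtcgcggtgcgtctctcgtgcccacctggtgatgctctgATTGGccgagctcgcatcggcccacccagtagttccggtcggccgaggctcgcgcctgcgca
Srebf2: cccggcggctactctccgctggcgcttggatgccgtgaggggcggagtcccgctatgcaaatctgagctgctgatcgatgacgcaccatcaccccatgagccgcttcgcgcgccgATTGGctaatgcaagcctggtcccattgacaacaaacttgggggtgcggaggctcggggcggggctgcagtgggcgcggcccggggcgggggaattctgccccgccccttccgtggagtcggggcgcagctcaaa
Insig1: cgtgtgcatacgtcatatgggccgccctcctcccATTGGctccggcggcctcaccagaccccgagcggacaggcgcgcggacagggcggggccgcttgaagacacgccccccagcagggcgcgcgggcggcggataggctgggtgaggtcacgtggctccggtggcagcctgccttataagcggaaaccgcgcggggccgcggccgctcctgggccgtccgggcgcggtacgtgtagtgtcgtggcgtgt
Fasn: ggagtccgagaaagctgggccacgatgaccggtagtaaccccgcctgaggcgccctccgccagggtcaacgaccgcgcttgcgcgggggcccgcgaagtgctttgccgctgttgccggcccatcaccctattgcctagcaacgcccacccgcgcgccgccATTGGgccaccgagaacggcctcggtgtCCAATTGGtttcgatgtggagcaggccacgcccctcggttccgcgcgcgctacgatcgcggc

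These stretches hold 1 SRE-like match, TCACCCCAC in Hmgcs1, which begins 137 bases before the start site. CCAAT matches number 3 in Hmgcs1, 1 in Lss, 1 in Srebf2, 1 in Insig1 and 3 in Fasn, and 2 of those in Fasn overlap each other as CCAATTGG. Over windows of 300 bases that also take in the 50 bases after the start, 26 of the 33 members had an entry, with 35 promoters in all. CCAAT was found in 21 of these 35 promoters (60%) and in 37.6% of 25371 promoters of all genes in the table. Among the cholesterol enzymes it was found in at least 1 promoter of 14 of the 15 genes with an entry (93.3%). Over all 20743 genes of the table with an entry, that share was 41.5%. By promoter it was found in 14 of the 18 of these enzymes (77.8%). The SRE-like letters were found in 1 of 35 promoters of members and in 1.25% of all promoters. CACGTG, an E-box that SREBP1 can also bind, was found in 7 of 35 (20%) and in 7.58% of all. These are matches of letters and not sites of binding.

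Total counts per sample ranged from 61485556 to 153495112. Markers of mature oligodendrocytes were present in every sample, with the CPM of 10 such genes summing to 40506 to 98516 in WT, 9040 to 34523 in Jab1 mutants and 16531 to 52320 in double mutants. In Jab1 mutants, 7 of these 10 were lower than in WT (median log2 fold change -2.23). A negative fold change was found in 9 of 10. Mbp went the other way, with a mean of 10823.1 CPM in WT and 13085.5 CPM in Jab1 mutants. Markers of microglia had positive fold changes in Jab1 mutants. The 20 genes summed to 150 to 359 CPM in WT, 1382 to 3461 in Jab1 mutants and 531 to 23358 in double mutants, the last in double mutant sample 3, and 18 of the 20 were higher in Jab1 mutants. Astrocyte markers, the largest sum after those of mature oligodendrocytes in WT, summed to 5549 to 13388 CPM in WT, 3544 to 8677 in Jab1 mutants and 4036 to 11156 in double mutants, and 9 of 10 had a negative fold change in Jab1 mutants (median -0.48). Endothelial markers were higher in Jab1 mutants in 6 of 10 and mural markers in 4 of 9 tested. Of 8 OPC markers, 1 was called higher there, and 6 had a positive and 2 a negative fold change (median 1.39). Of 4 tested markers of monocytes, neutrophils and border macrophages, 1 was called higher. None of 10 astrocyte and 10 neuron markers passed the test by edgeR in that comparison, although 3 and 3 of them had an unadjusted p under 0.05. Cops5 ranged from 46.5 to 134 CPM in WT, 45.1 to 89.3 in Jab1 mutants and 44.4 to 90.7 in double mutants, so its gene count, which covers all exons, did not separate the genotypes. Cdkn1a ranged from 16.0 to 85.6 CPM in WT, 380.1 to 639 in Jab1 mutants and 64.9 to 104 in double mutants. The double mutant samples were thus not below WT, and this count, which covers all exons and not the deleted part alone, does not check the label. By qPCR on sorted O1+ cells, the study reported less Cops5 mRNA in Jab1 mutants and undetectable Cdkn1a in double mutants. In bulk RNA, fewer cells of a type and less RNA per cell cannot be told apart.

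In the WT samples, Scd2 had the highest level of the 33 genes per length of exon. Scd2 encodes the stearoyl-CoA desaturase that predominates in brain, and its level was 596 ± 285 CPM per kb (mean ± SD, n = 4). It was followed by Msmo1, a methylsterol oxidase (338 ± 30.7 CPM per kb), by Srebf1, which encodes SREBP1 (80.4 ± 44.3), and by Fdft1, the squalene synthase at the branch point to sterols (79.6 ± 7.74). The spreads of Scd2 and Msmo1 overlapped, whereas Msmo1 was above Srebf1 by more than their spreads. Srebf1, Fdft1 and Sqle (76.2 ± 12.8), the squalene epoxidase, did not differ beyond theirs. The lowest levels per kb were those of Stard4 (2.13 ± 0.621), a carrier of cholesterol between membranes, Nr1h3, the LXRα receptor (4.82 ± 2.12), and Acaca, the acetyl-CoA carboxylase that commits carbon to fatty acids (5.30 ± 2.38).

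Sterol and fatty acid synthesis genes were lower in Jab1 mutants than in WT across all 3 synthetic groups, by size if not always by test. Of the 33 genes, 31 had a lower fitted level, with a median log2 fold change of -1.11 against 0.02 over all genes tested. By edgeR's quasi-likelihood test with Benjamini-Hochberg adjustment over all 17716 genes, 6 of 33 fell and 0 rose. Over all genes, 2.46% were called lower and 5.19% higher. At an unadjusted p under 0.05, 20 of 33 were lower and 0 were higher, against 9.3% of all genes that were lower. In 16 of 33, every Jab1 mutant sample lay below every WT sample, against 7.24% of all genes. DESeq2 called 16 of 33 lower, against 5.71% of all genes. Below, CPM values are listed by replicate number, which is 1, 3, 5 and 6 in WT, 1 to 4 in Jab1 mutants and 1, 2, 3 and 5 in double mutants, and fold changes are log2 values ± SE.

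**Figure D1:**
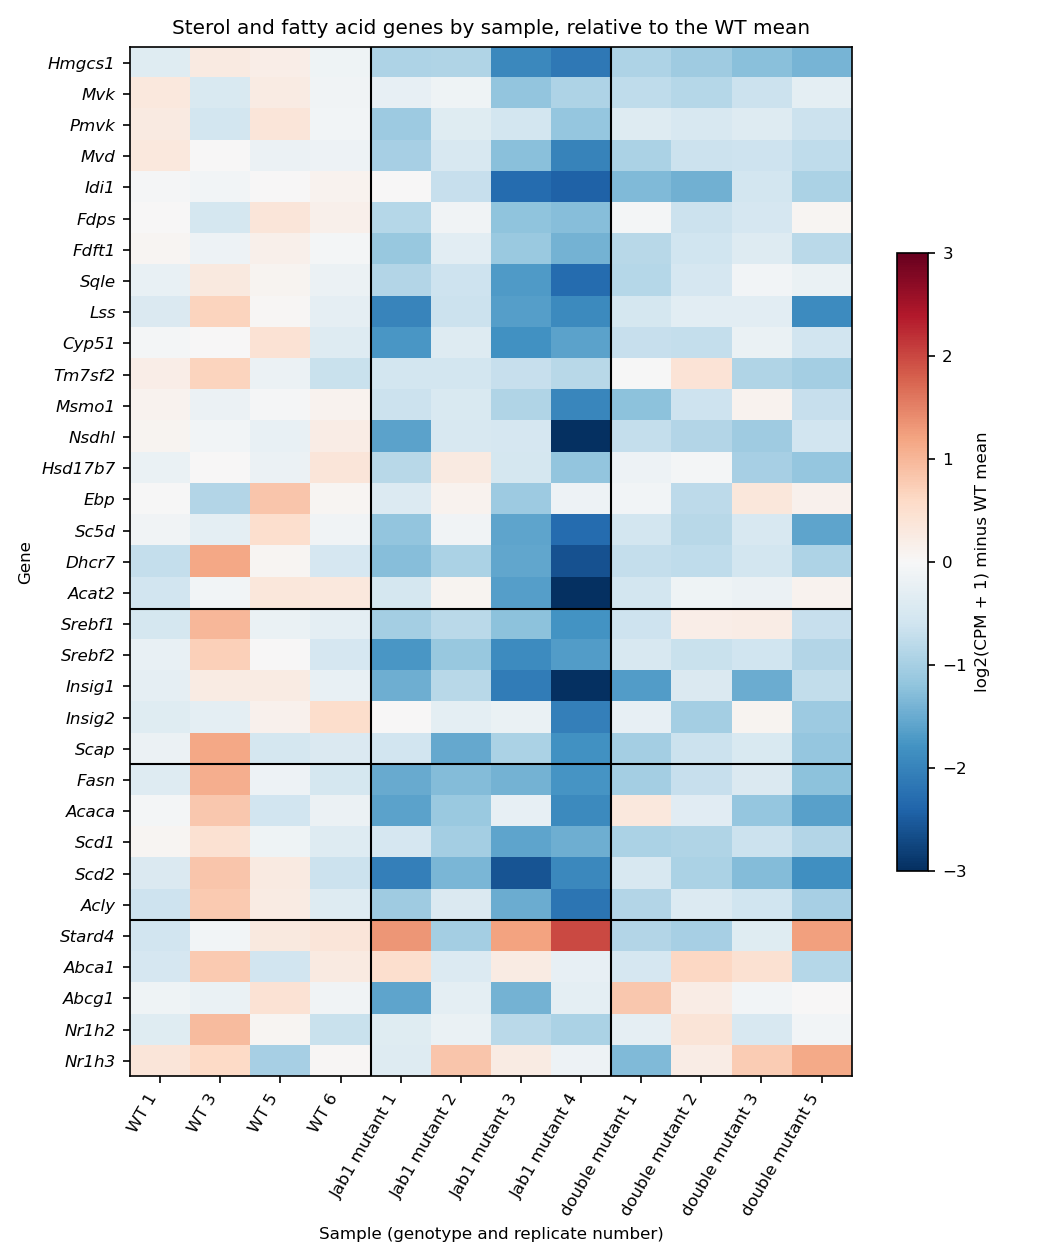
Levels of the 33 genes (vertical axis) in each of the 12 samples (horizontal axis), as log2(CPM + 1) minus the mean over the 4 WT samples, with the color scale ending at 3 in either direction. Horizontal lines separate cholesterol enzymes, SREBP system, fatty acid synthesis and sterol transport genes. Jab1 mutant sample 4 was the lowest of its genotype in 21 of the 28 genes of the first 3 groups, and Jab1 mutant sample 2 the highest in 23.

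Of the 18 cholesterol enzymes, 2 passed the test, Hmgcs1 and Lss, and both fell. Hmgcs1 encodes the cytosolic HMG-CoA synthase at the entry to the mevalonate pathway (chr13:119690379-119708260, forward strand). Its CPM was 181, 282, 267 and 214 in WT, 122, 123, 60.4 and 51.4 in Jab1 mutants and 123, 110.5, 96.5 and 88.2 in double mutants. All Jab1 mutant samples lay below all WT samples, samples 3 and 4 furthest. The fold change was -1.40 ± 0.36 (adjusted p = 0.036 by edgeR). In the annotation, 16.0% of its exon bases overlap Gm48342 on the opposite strand, whose reads could not be told apart.

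Lss encodes lanosterol synthase, which closes the sterol ring (chr10:76531588-76557138, forward strand). In WT it was at 52.1, 113, 72.5 and 58.2 CPM, in Jab1 mutants at 17.1, 44.4, 21.8 and 17.9 and in double mutants at 48.3, 56.3, 56.2 and 18.3. Jab1 mutant and WT values did not overlap, with Jab1 mutant sample 2 close to the lowest WT sample. Its fold change was -1.54 ± 0.39 (adjusted p = 0.0371 by edgeR). In the annotation, 8.16% of its exon bases lie opposite 4930483K19Rik.

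The other 16 cholesterol enzymes were not called, and all had negative fold changes. The most negative was that of Dhcr7, a late sterol reductase, which was at 73.5 ± 48.4 CPM in WT and 22.3 ± 9.74 in Jab1 mutants (mean ± SD, n = 4 each; fold change -1.72 ± 0.49, adjusted p = 0.0555 by edgeR). The sterol demethylase gene Cyp51 (-1.29, adjusted p = 0.063), the squalene epoxidase gene Sqle (-1.26, adjusted p = 0.0679) and the mevalonate diphosphate decarboxylase gene Mvd (-1.12, adjusted p = 0.07) followed closest to the threshold in edgeR's test. Fdft1 (-0.94) and Msmo1 (-0.89) were at smaller values. The least negative were Ebp, a sterol isomerase (-0.46), Hsd17b7, a sterol ketoreductase (-0.50), and Mvk, the mevalonate kinase (-0.59), whose samples overlapped with WT. The median over all 18 was -0.998. In 8 of 18 (Hmgcs1, Mvd, Fdft1, Sqle, Lss, Msmo1, Nsdhl and Dhcr7) the ranges did not overlap. Reads of 4 of these enzymes are the most uncertain. Of the exon bases of Fdps, 77.4% lie within Gm43738 on the same strand, and 20.9% of those of Fdft1 lie opposite Ctsb, while Acat2 and Idi1 share 39.1% and 25.3% of their 50-base words with other genes. Tm7sf2 shares 9.87% of such words, and smaller shares in other enzymes are not listed.

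In the SREBP system, Srebf2 and Insig1 fell. Srebf2 encodes SREBP2, the factor that mainly drives cholesterol synthesis genes (chr15:82147181-82205379, forward strand). It was at 174, 333, 204 and 141 CPM in WT, 59.7, 91.3, 54.0 and 62.1 in Jab1 mutants and 145, 127, 133 and 110.0 in double mutants. The Jab1 mutant range lay below the WT range with a wide gap, and also below the double mutant range. The fold change was -1.67 ± 0.34 (adjusted p = 0.0142 by edgeR), the smallest adjusted p of the 33 genes.

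Insig1 encodes a protein of the endoplasmic reticulum that retains SCAP and SREBPs there, and is itself a target of SREBPs (chr5:28071363-28078662, forward strand). The WT samples were at 125, 180.3, 181 and 130.1 CPM, the Jab1 mutants at 53.9, 85.0, 34.9 and 17.2 and the double mutants at 46.7, 112, 53.7 and 90.8. No Jab1 mutant sample reached the WT range, and sample 4 was the lowest. The fold change was -1.69 ± 0.44 (adjusted p = 0.0388 by edgeR).

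Srebf1 encodes SREBP1, which mainly drives fatty acid synthesis genes (chr11:60199089-60222581, reverse strand). It measured 219.8, 629, 275 and 258 CPM in WT, 154, 179, 134 and 89.7 in Jab1 mutants and 205, 360.0, 367 and 196 in double mutants. WT sample 3 stood far above the other WT samples, and every Jab1 mutant sample was below every sample of the other genotypes. The fold change of -1.31 ± 0.39 did not pass the test (adjusted p = 0.066 by edgeR). Scap (-1.35 ± 0.45, adjusted p = 0.098 by edgeR), with 18.6% of its exon bases opposite 5830462I19Rik, and Insig2 (-0.50 ± 0.43, adjusted p = 0.546), the second INSIG, were not called either. The median over the 5 genes was -1.35.

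Of the 5 fatty acid synthesis genes, Scd2 and Fasn fell. Scd2 (chr19:44293674-44306864, forward strand) had the largest fold change of the 33 genes. Its CPM was 2213, 5303, 3595 and 1903 in WT, 716, 1166, 499 and 781 in Jab1 mutants and 2137, 1541, 1218 and 839 in double mutants. Jab1 mutant and WT ranges were apart, and the first double mutant sample lay within the WT range. The fold change was -2.04 ± 0.42 (adjusted p = 0.0162 by edgeR).

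Fasn encodes fatty acid synthase, which makes palmitate (chr11:120805846-120824547, reverse strand). Values were 215, 602, 254 and 195 CPM in WT, 98.5, 115, 106 and 81.8 in Jab1 mutants and 138, 176, 209.8 and 119.5 in double mutants. The Jab1 mutant samples were close together and below the other 8, and WT sample 3 was again the highest. The fold change was -1.66 ± 0.39 (adjusted p = 0.0269 by edgeR).

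Scd1, the desaturase with a wider distribution in the body (chr19:44394455-44407879, reverse strand), was at 125, 164, 109 and 91.5 CPM in WT, 83.5, 58.9, 39.3 and 42.8 in Jab1 mutants and 61.5, 63.9, 76.4 and 64.8 in double mutants. The Jab1 mutant and WT ranges did not overlap, but its fold change of -1.13 ± 0.32 was just outside the threshold (adjusted p = 0.0591 by edgeR). Acly, which makes cytosolic acetyl-CoA from citrate (-1.27 ± 0.43, adjusted p = 0.103 by edgeR), and Acaca (-1.20 ± 0.44, adjusted p = 0.13) were not called. Acaca shares 30.4% of its 50-base words with other genes. The median over the 5 genes was -1.27.

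**Figure D2:**
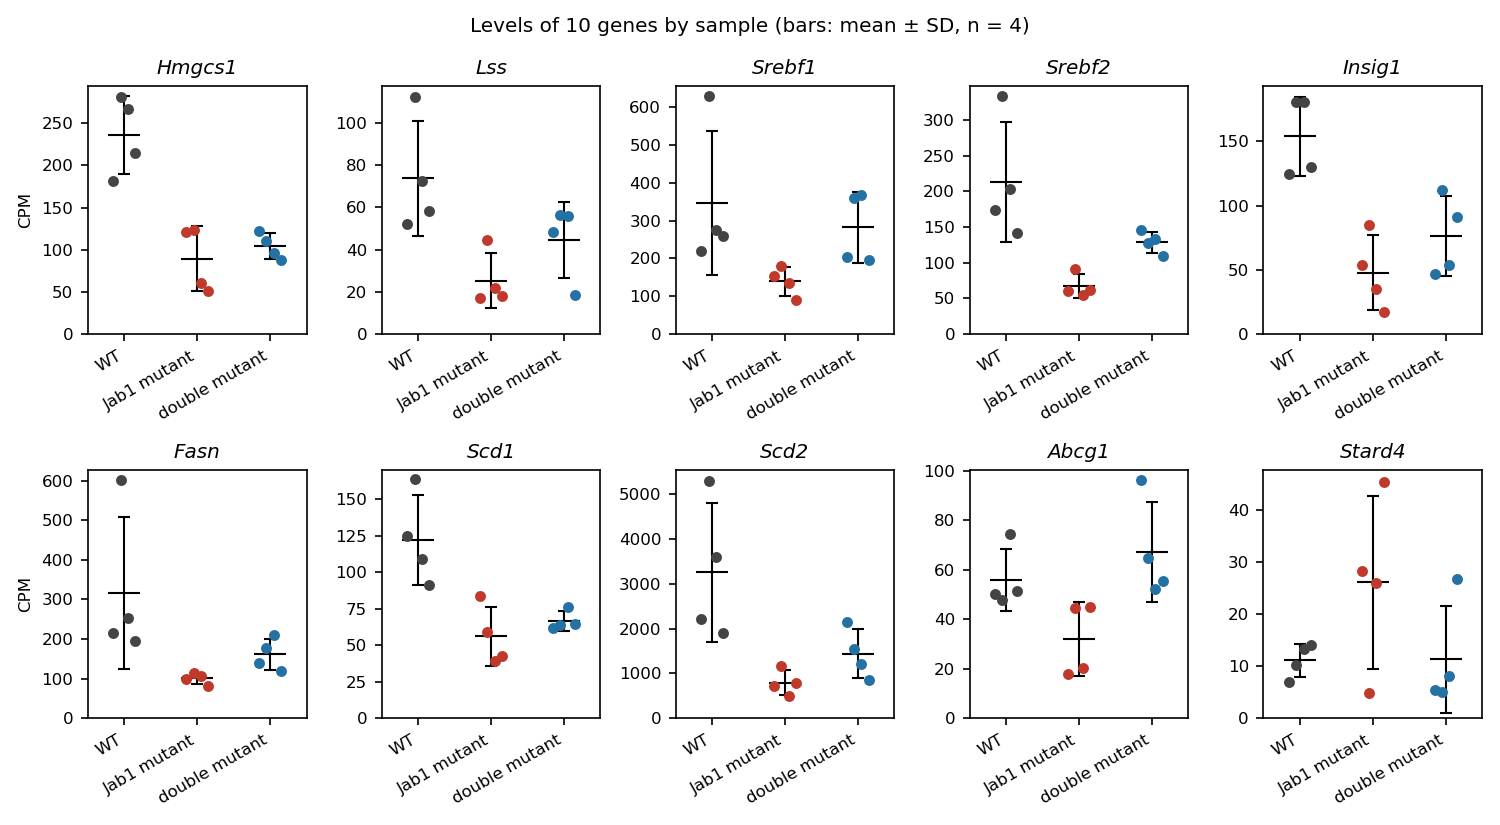
CPM (vertical axis, linear, from 0, with its own scale per gene) of 10 genes in the 3 genotypes, with each point a sample and bars showing mean ± SD (n = 4). In Hmgcs1, Lss, Srebf1, Srebf2, Insig1, Fasn, Scd1, Scd2 and Abcg1 all 4 Jab1 mutant samples sit below all 4 WT samples, whereas Stard4 values overlap.

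Of the 5 sterol transport and LXR genes, 3 had a negative and 2 a positive fold change in Jab1 mutants, and whether they differed from the synthetic genes was not tested. By edgeR 0 passed the test and 0 had an unadjusted p under 0.05, and DESeq2 also called 0. Their median fold change was -0.04. Abcg1, a cholesterol exporter and LXR target (chr17:31057675-31117988, forward strand), was at 50.2, 47.8, 74.3 and 51.2 CPM in WT, 17.7, 44.6, 20.1 and 45.0 in Jab1 mutants and 96.3, 64.6, 52.3 and 55.4 in double mutants. Jab1 mutant samples fell into a low pair, 1 and 3, and a pair just under the lowest WT sample (fold change -0.81 ± 0.37, adjusted p = 0.224 by edgeR). Stard4 was at 6.95, 10.2, 13.3 and 14.0 CPM in WT, 28.2, 4.83, 26.0 and 45.6 in Jab1 mutants and 5.40, 4.93, 8.11 and 26.7 in double mutants. Jab1 mutant sample 2 was below every WT sample and the other 3 were above them all (fold change 1.24 ± 0.57, adjusted p = 0.227 by edgeR). The exporter Abca1 (-0.04 ± 0.37) and the LXR receptor genes Nr1h2 (-0.70 ± 0.38) and Nr1h3 (0.11 ± 0.53) overlapped between genotypes.

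**Figure D3:**
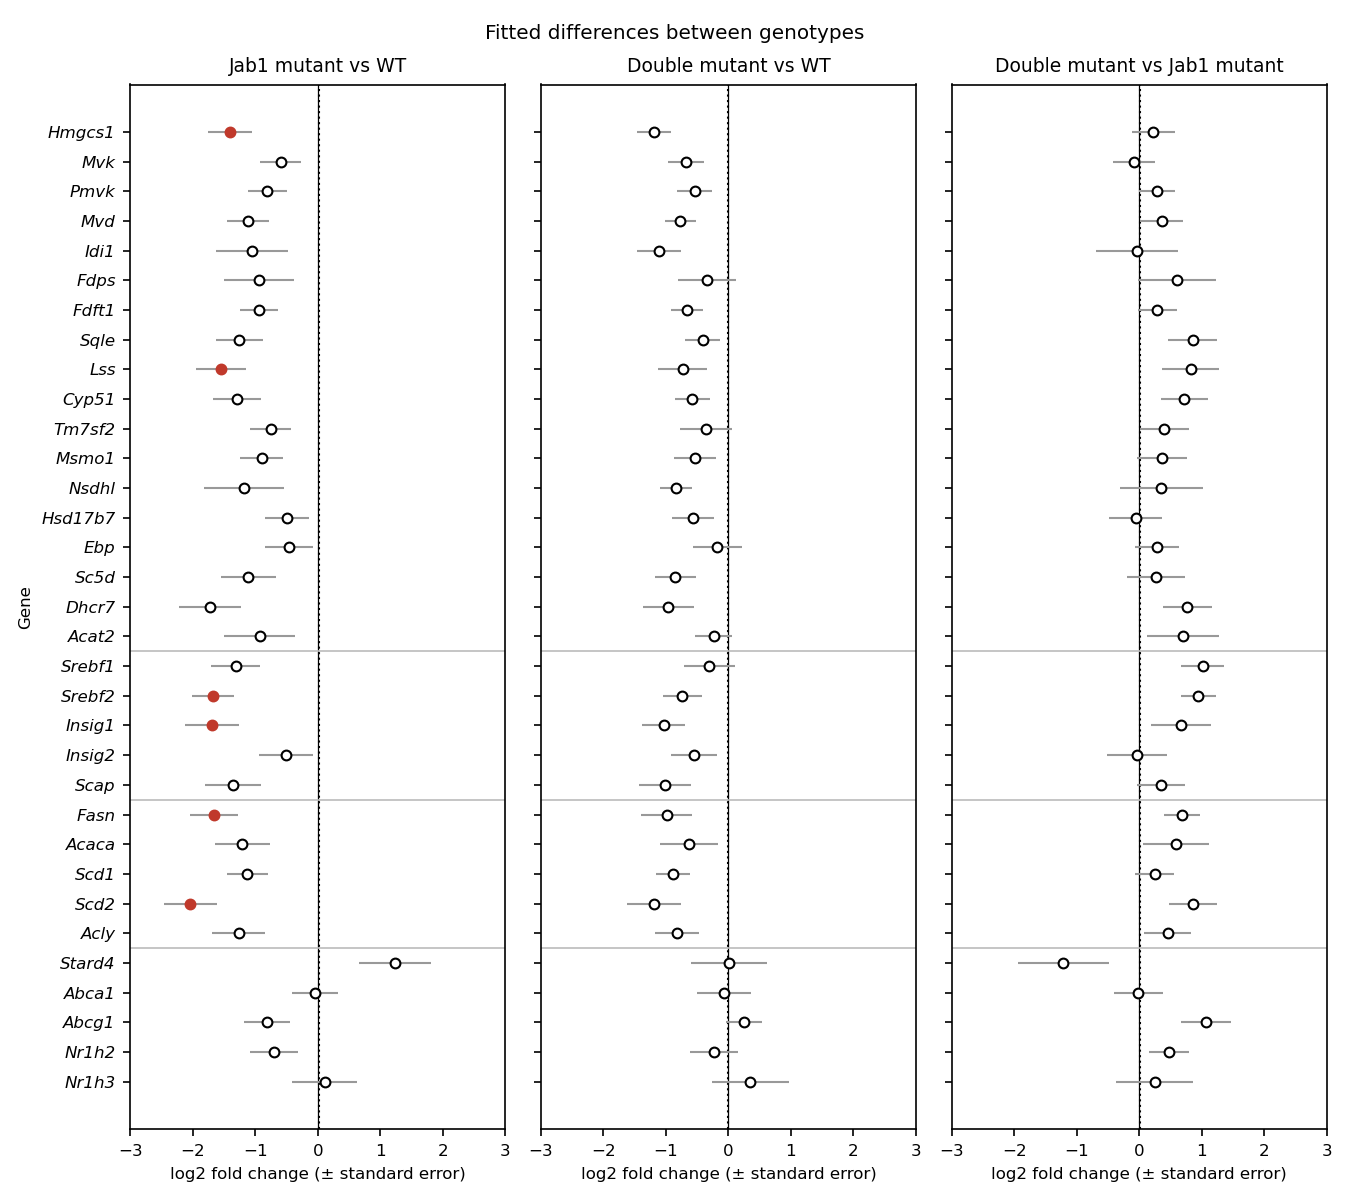
Fitted log2 fold changes (horizontal axis) ± SE of the 33 genes (vertical axis) in the 3 comparisons, with filled red points for adjusted p below 0.05 by edgeR, a solid line at 0 and a dotted line at the median of all genes tested. Filled points occur in Jab1 mutants vs WT only, where there are 6, and open points in the same panel lie left of 0 for all members except Stard4 and Nr1h3.

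Leaving out a sample changed how many of the 33 genes were called lower in Jab1 mutants. There were 3 without WT sample 1, 3, 5 or 6, 4 without Jab1 mutant sample 1, 13 without sample 2 and 2 without sample 3 or 4. Srebf2 and Scd2 were called in all 8 of these fits, Fasn in 5, Hmgcs1 in 2 and Lss and Insig1 in 1 each. With the score of the microglia markers or of the mature oligodendrocyte markers as a covariate, 0 of the 33 were called, and 1 gene of all 17716 was called lower in each. These fits used all 12 samples, so the double mutants also entered the slope of the score. In these fits the medians were -1.07 and -0.56 for the cholesterol enzymes, -1.33 and -1.45 for the SREBP system and -1.22 in both for fatty acid synthesis. The part of these other cells and of the lower oligodendrocyte markers in the result was not tested.

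**Figure D4:**
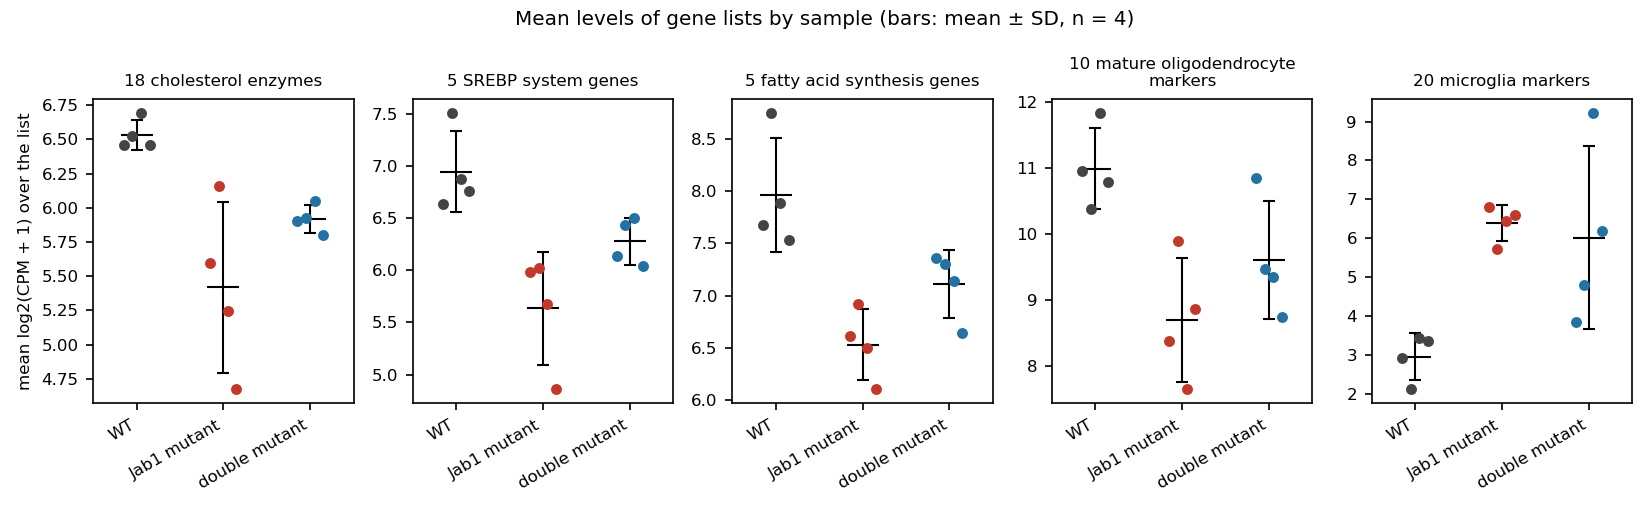
Mean log2(CPM + 1) (vertical axis, with its own scale per panel that does not start at 0) over the cholesterol enzymes, the SREBP system, fatty acid synthesis, mature oligodendrocyte markers and microglia markers in each sample, with bars for mean ± SD (n = 4). The 3 synthetic groups and the oligodendrocyte markers were lower in Jab1 mutant than in WT samples, and the microglia markers were higher.

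Further genes of these pathways were examined as 4 lists with 45 genes in all. In Jab1 mutants 3 of the 45 rose and 2 fell by edgeR, with a median fold change of -0.56 (beside 5.19% of all genes called higher and 2.46% lower), so the number of calls is not a result about these lists. With either marker score as a covariate, or with a replicate block, 0 of the 45 were called. Elovl6, the elongase that extends palmitate, fell. It was at 117, 105, 147 and 71.9 CPM in WT, 13.1, 40.7, 11.1 and 13.9 in Jab1 mutants and 108, 39.1, 45.9 and 21.9 in double mutants (-2.48 ± 0.46, adjusted p = 0.00946 by edgeR). Every Jab1 mutant sample was below every WT sample. Abca2, a lipid transporter abundant in oligodendrocytes, also fell, from 287 to 1129 CPM in WT to 74.1 to 124 in Jab1 mutants (-2.54 ± 0.47, adjusted p = 0.00992 by edgeR).

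Mlxipl, which encodes the carbohydrate-responsive factor ChREBP, an activator of fatty acid synthesis genes, rose in Jab1 mutants. It was at 5.82, 11.5, 5.03 and 12.99 CPM in WT, 63.9, 45.0, 126 and 34.3 in Jab1 mutants and 3.93, 10.9, 6.10 and 7.87 in double mutants. The Jab1 mutant range stood above both others, which overlapped. The fold change from WT was 2.93 ± 0.50 (adjusted p = 0.00682 by edgeR), and that of double mutants from Jab1 mutants was -3.22 ± 0.51, which edgeR did not call (adjusted p = 0.186, and 0.145 to 0.644 with a sample left out). DESeq2 called it (adjusted p = 2.91e-07), as did 2 of 18 alternatives in all. Fbxw7, a ubiquitin ligase subunit that marks nuclear SREBPs for degradation, rose from 13.3 ± 2.96 CPM in WT to 38.6 ± 11.2 in Jab1 mutants (mean ± SD, n = 4 each; 1.54 ± 0.34, adjusted p = 0.0211 by edgeR). Fbxw7 was called in 10 of 18 alternatives and in 4 of 8 fits with a sample left out. Ch25h, a cholesterol hydroxylase, was just inside the threshold (adjusted p = 0.049 by edgeR, and 0.0283 to 0.172 with a sample left out, called in 2 of 8 such fits and in 5 of 17 alternatives in all), with 0 counts in 3 WT samples and 48 in WT sample 3, against 518, 206, 89 and 2647 in Jab1 mutants.

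By list, 1 of 16 genes of fatty acid supply, elongation and desaturation fell and 1 rose (median -0.83). Of 18 genes of sterol uptake, storage, turnover and LXR targets, 1 fell and 1 rose (median -0.47). Of 6 genes of SREBP processing, 1 rose and 0 fell (median -0.24). None of the 5 isoprenoid branch genes, which draw on the same mevalonate, was called by edgeR or had an unadjusted p under 0.05 (median -0.43).

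In double mutants, most of the 33 genes again had a lower fitted level than in WT, and no member passed the test. The same 4 WT samples served as in the comparison above. Of the 33 genes, 30 had a lower fitted level than in WT, with a median fold change of -0.63. By edgeR 0 fell and 0 rose, against 0.0169% of all genes called lower and 0.175% higher. DESeq2 called Hmgcs1 and Scd1 lower, 2 of 33 against 1.14% of all genes. At an unadjusted p under 0.05, 15 of 33 were lower, against 4.57% of all genes, and in 8 of 33 the double mutant samples lay below all WT samples, against 3.58%.

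Hmgcs1 had the smallest adjusted p of the 33 in this comparison, with double mutant samples 88.2 to 123 CPM and WT samples 181 to 282 CPM (-1.19 ± 0.27, adjusted p = 0.11 by edgeR). Idi1, the isopentenyl diphosphate isomerase of the mevalonate pathway (-1.10 ± 0.35), Nsdhl, a sterol dehydrogenase that acts after lanosterol (-0.84 ± 0.26), Insig1 (-1.03 ± 0.34) and Scd1 (-0.89 ± 0.27) were among those with an unadjusted p under 0.05 and no overlap with WT. Scd2 was at 1434 ± 549.7 CPM against 3253 ± 1552 in WT (mean ± SD, n = 4 each), and its ranges overlapped (-1.20 ± 0.43, adjusted p = 0.29 by edgeR). Srebf1 was the closest to WT of the SREBP system (-0.30 ± 0.41), although without WT sample 3 its fold change was 0.15. The medians were -0.62 for cholesterol enzymes, -0.74 for the SREBP system, -0.89 for fatty acid synthesis and 0.01 for sterol transport and LXR genes. Without double mutant sample 3, whose microglia markers were far above those of the others, 30 of 33 remained below WT and 0 were called.

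When double mutants were compared with Jab1 mutants directly, most synthetic genes had a higher fitted level in double mutants, and no difference passed the test. The same Jab1 mutant samples served as in their comparison with WT, so these comparisons are not independent. The fold change was positive in 27 of 33 (median 0.37, against 0.02 over all genes). Over all genes it was positive in 9093 of 17716. edgeR called 0 of 33 in either direction, as it did of all genes (0% higher and 0% lower), and DESeq2 called 0 of 33 higher, against 0.115% of all genes. At an unadjusted p under 0.05, 5 of 33 were higher, against 1.75% of all genes, and 5 of 33 had no overlap, against 1.22%. Thus no member was shown to differ between double and Jab1 mutants, although 6 differed from WT in Jab1 mutants and 0 in double mutants.

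The 5 with an unadjusted p under 0.05 were Srebf2 (0.95 ± 0.28, unadjusted p = 0.00608), Srebf1 (1.02 ± 0.34, 0.0134), Abcg1 (1.08 ± 0.40, 0.0214), Fasn (0.68 ± 0.29, 0.036) and Scd2 (0.86 ± 0.39, 0.0495), all in edgeR's test. Their adjusted p ranged from 0.822 in Srebf2 to 0.968 in Fasn and Scd2. Srebf2 was at 54.0 to 91.3 CPM in Jab1 mutants and at 110.0 to 145 in double mutants. Fasn was at 81.8 to 115 and 119.5 to 209.8 CPM, and Srebf1 at 89.7 to 179 and 196 to 367 CPM. The ranges of these 3 genes, of Abcg1 and of Dhcr7 did not overlap, those of Dhcr7 by less than 1 CPM. Abcg1 lies on chromosome 17, as does Cdkn1a, which was knocked out in double mutants only. Any part of this shared chromosome in the difference of Abcg1 was not tested. Hmgcs1 (0.23 ± 0.35), Mvk (-0.08 ± 0.34) and Idi1 (-0.04 ± 0.66) had fold changes smaller than their SEs. The medians were 0.36 for cholesterol enzymes, 0.67 for the SREBP system, 0.59 for fatty acid synthesis and 0.25 for sterol transport and LXR genes.

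Over the 3 genotypes, WT had the highest mean of all 28 genes of the 3 synthetic groups, against 37.3% of all genes tested. These means rest partly on WT sample 3, which was the highest WT sample in 13 of the 28. By medians, Srebf1 was at 267 CPM in WT and at 282 CPM in double mutants. The order of means from Jab1 mutants through double mutants to WT held for 24 of these 28 (85.7%) and for 23.1% of all genes. As WT was already highest in all 28, the like comparison is with the genes that share this. Of all genes tested, 6600 had the highest mean in WT, and the order held for 4094 of them. The exceptions were Mvk, Idi1, Hsd17b7 and Insig2, in which the double mutant mean was at or below that of Jab1 mutants.

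Within Jab1 mutants, sample 2 was the highest in 23 of the 28 synthetic genes, 17 of them cholesterol enzymes, and sample 4 the lowest in 21. Sample 2 had the highest summed oligodendrocyte (34523 CPM) and neuron markers (759 CPM) and the lowest endothelial (683 CPM) and microglia markers (1382 CPM) of the Jab1 mutants. Sample 4 had the lowest astrocyte markers (3544 CPM), but its oligodendrocyte markers (18744 CPM) were above those of sample 3 (9040 CPM).

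Among WT samples, sample 3 was the highest in all 5 fatty acid synthesis genes, while of the 18 cholesterol enzymes it was the lowest in 8 and the highest in 5. It had the lowest oligodendrocyte markers (40506 CPM) and the highest astrocyte markers (13388 CPM) of that genotype. In double mutants, sample 3 was the highest in 14 of 28, with the highest microglia markers (23358 CPM) and oligodendrocyte markers of 26213 CPM, whereas sample 1, with the most oligodendrocyte markers (52320 CPM), was the highest in 5 and the lowest in 7. Sample 5 was the lowest in 15, 7 of them cholesterol enzymes, and had the lowest oligodendrocyte markers (16531 CPM). The part of these markers in the order of the samples was not tested.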

How the data were processed

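Per the submitters' processing notes and the methods of the study, the authors amplified total RNA with a SMART-Seq v4 kit. Trimming was done with Trimmomatic 0.32, alignment to GRCm38 with STAR 2.5.3a, and counting with featureCounts (GENCODE M22, basic set). The deposited values were raw counts per gene symbol. Strand settings and the treatment of reads with several matches are not given in the sources used here.

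CPM values were computed with TMM factors from all 12 samples. Groups were taken from the genotype labels and compared with edgeR 4.0.16 (R 4.3.3, quasi-likelihood test) on the 8 samples concerned, and p-values were adjusted by Benjamini-Hochberg (threshold 0.05) over the 17716 genes that reached 1 CPM in 4 or more of 12 samples. SEs were derived from the fold change and its F statistic. Scripts were tested on simulated data. At 61485556 to 153495112 counts per sample and with TMM factors, 1 CPM was at least 67.7 counts, and the reads carry no molecular identifiers. The filter at 1 CPM used library sizes without these factors. Positions, exon lengths and shared 50-base words came from GENCODE M21 (GRCm38), and promoters from RefSeq.

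The members and lists were chosen with earlier results of these data known. CPM is listed by sample for every member called in any comparison, for the 2 members of each group with the smallest p in Jab1 mutants vs WT, and for Srebf1, Srebf2, Scd1, Scd2, Insig1 and Hmgcs1. Of the further lists, every called gene is named. Alternatives were DESeq2 1.42.0, upper-quartile and RLE normalization, unfiltered genes, only genes averaging 10 CPM or more, a single fit of all 12 samples, a replicate block, limma-voom (limma 3.58.1) with quality weights, marker scores as covariates and each sample left out. The fits with a replicate block or a marker score also used all 12 samples.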

Additional observations from a re-analysis of the deposited data

Results flagged for a closer look

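Within the 4 samples of a genotype, 4 values stood far from the other 3 by Dixon's test on log2(CPM + 1), of 99 groups of values tested, where chance at 1 in 20 gives 4.95. Lss was at 18.3 CPM in double mutant sample 5, with the next value at 48.3 CPM. Cyp51 was at 139 CPM in Jab1 mutant sample 2, with the next at 58.9 CPM. Insig2 was at 11.1 CPM in Jab1 mutant sample 4, with the next at 40.1 CPM. Abcg1 was at 74.3 CPM in WT sample 5, with the next at 51.2 CPM.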

How the results depend on the processing

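The count of 6 members lower in Jab1 mutants than in WT was 16 with DESeq2, 14 with limma-voom, 11 with a mean of at least 10 CPM, 3 with no filter, and 0 with the microglia score, the mature oligodendrocyte score or the replicate block. It was 6 with either other normalization and 8 with all 12 samples in 1 fit. With a sample left out it was 2 to 13, and the count of members higher was 0 to 1, the 1 being Stard4 without Jab1 mutant sample 2. The count of members lower in double mutants than in WT was 2 with DESeq2 and 0 in all other fits, and counts of members in double against Jab1 mutants were 0 in all. Over 18 alternatives, Srebf2 and Scd2 were called in 15 each, Fasn in 12, Hmgcs1 in 8, Insig1 in 7 and Lss in 6.

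Signs turned only in genes that the main test did not call, and those given here are not a full list. With the mature oligodendrocyte score, Abcg1 in Jab1 mutants was 0.28 and Stard4 -0.52 on the log2 scale. Of the cholesterol enzymes, Ebp (0.44), Hsd17b7 (0.14) and Sc5d (0.02) turned positive in Jab1 mutants with the same score. With the microglia score, Tm7sf2 (0.17) and Hsd17b7 (0.19) turned positive there. The other cholesterol enzymes stayed negative with both scores. In double mutants against WT, Srebf1 was 0.00081 with limma-voom and -0.47 to 0.15 with a sample left out, and Stard4 was -0.062 with no filter, -0.27 with limma-voom, -0.88 with the microglia score, -1.21 with the oligodendrocyte score and -0.87 to 0.27 with a sample left out. Without WT sample 3 the SREBP median in Jab1 mutants was -0.87. The cause of these shifts was not tested.

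Samples of different genotypes that share a replicate number did not deviate together (correlations -0.19 to 0.08 over 8 shared numbers, 2 of 8 samples closest to their own number), so the numbers were not taken to pair samples. The replicate block called 76 genes higher and 3 lower in Jab1 mutants among all 17716.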

Other observations

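The ratio of Scd2 to Scd1 counts, the pair of desaturases, was 17.7 to 32.9 in WT, 8.57 to 19.8 in Jab1 mutants and 12.9 to 34.8 in double mutants, so the ranges overlapped. The ratio of Srebf2 to Srebf1 counts was 0.53 to 0.79 in WT, 0.387 to 0.692 in Jab1 mutants and 0.352 to 0.709 in double mutants, which also overlapped.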
